A study of Saccharomyces cerevisiae with 6 samples.

Results

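The Ras-cAMP-PKA pathway and the kinase Rim15 were followed here through 9 genes, RAS1, RAS2, CYR1, PDE1, PDE2, BCY1, TPK2, TPK3 and RIM15, in budding yeast whose only Hsp90 was a mutant or a wild-type form of Hsc82. The members were taken from the platform annotation by gene name, and all 9 had a probe set, out of 5449 S. cerevisiae genes with one on the array. Each member had 1 probe set, so no choice among probe sets was needed, and none of these carried the ID suffix that marks probes shared with other sequences. Strain JJ816 lacks the chromosomal copies of HSC82 and HSP82 in both groups. In the first group a plasmid supplied hsc82-W296A, in which a tryptophan is replaced by alanine, and in the second it supplied WT HSC82. Each group had 3 cultures, named as biological replicates in the labels and hybridised to 1 Affymetrix array each. They were grown in YPD, a rich glucose medium, at 30 °C and harvested in exponential phase at an optical density of 0.5. All cultures carry a plasmid-borne Hsc82 in 1 strain background, and the sources used here give neither the copy number of the plasmid nor the promoter of the gene.

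As background, glucose activates adenylate cyclase through the Ras GTPases and through a G protein coupled receptor. The cyclic AMP it makes binds Bcy1, the regulatory subunit of protein kinase A (PKA), and frees its catalytic subunits, Tpk2 and Tpk3 among them, while the phosphodiesterases Pde1 and Pde2 break cyclic AMP down. PKA activity favours growth and fermentation and restrains the stress response, and it inhibits Rim15, a kinase needed for entry into stationary phase, which acts through Igo1, Igo2 and the transcription factor Gis1. Hsp90 is a chaperone that many kinases and other signalling proteins need to fold.

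Values are the deposited log2 values, and changes are hsc82-W296A minus WT Hsc82 on that scale, with the standard error (SE) estimated by limma from n = 3 arrays in each group. A gene was called at a Benjamini-Hochberg adjusted p under 0.05 over all 5498 S. cerevisiae probe sets. The members read between 9.26 and 13.08 on every array, above the background level of 8.14 set from probe sets for another species on the same array and below the highest value of 14.93. The plasmid-borne gene itself, HSC82, stood at 14.54 ± 0.016 in hsc82-W296A and 14.28 ± 0.035 in WT Hsc82 (SD, n = 3 each). Both lie close to the highest value of 14.93. The HSC82 change was 0.26 and was called (adjusted p = 0.00139, limma). After anchored scaling, in which each array is stretched so that its background median and its S. cerevisiae median equal their means over the 6 arrays, the HSC82 change was -0.09. HSP82 read 10.31 in hsc82-W296A and 10.03 in WT Hsc82 although it is deleted, and since both genes are near-identical its probes can take up HSC82 transcript, so neither value checks the genotype. Arrays correlated at 0.995 to 0.998 within groups and at 0.917 to 0.941 between them. The median over S. cerevisiae probe sets was 11.07, 11.12 and 11.13 on the hsc82-W296A arrays and 10.94, 10.99 and 11.04 on the WT Hsc82 arrays, so changes were also computed after anchored scaling, after quantile normalization, which gives all arrays 1 distribution of values, and after median centring, and again with a smooth trend of the change on coding length removed.

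The pathway genes did not move together. PDE1, RIM15 and BCY1 were more than 2-fold higher in hsc82-W296A, CYR1 and TPK2 were higher by less, RAS1, TPK3 and PDE2 were lower, and RAS2 was not called. Thus 5 of the 9 members were called higher and 3 lower, 8 in all. Over the whole array 67.1% of probe sets were called, 36.9% higher and 30.2% lower, so a call by itself says little about a member. The balance turned under the other scalings, from 2028 probe sets higher and 1660 lower as deposited to 1709 and 2330 after median centring, 1701 and 2269 after quantile normalization and 1760 and 2235 after anchored scaling. At least 2-fold higher and called were 3 of the 9, against 8.86% of all probe sets, and at least 2-fold lower were 0 of the 9 (limma), against 0.873%. That 0 holds at any p, since no member had a change as low as that. The groups did not overlap for 8 members, as for 73.5% of all probe sets. The median absolute change was 0.55 over the members and 0.30 over all probe sets. RNA came from whole cultures, so a change in every cell and a change in a share of the cells cannot be told apart.

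**Figure D1:**
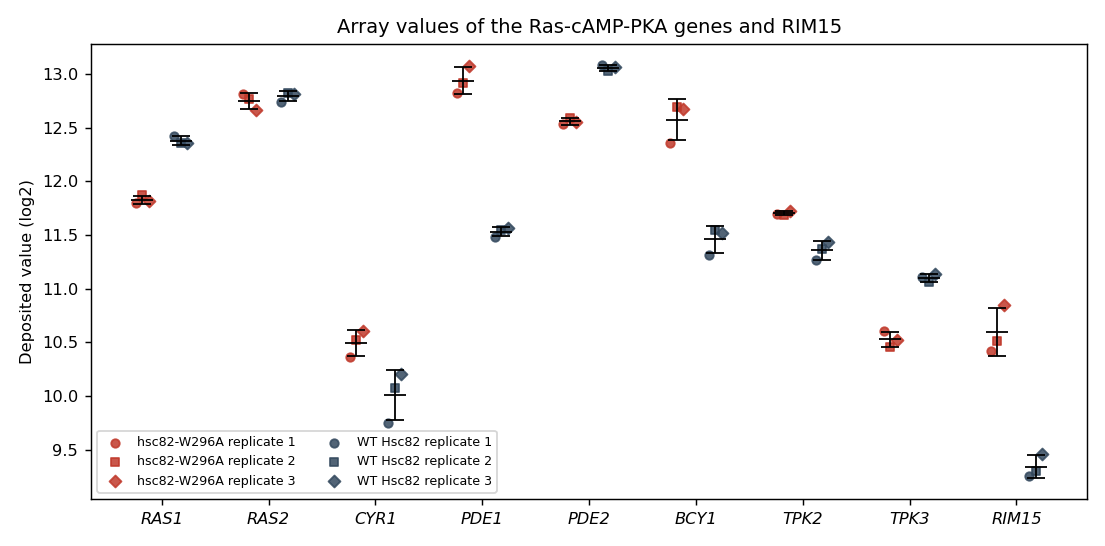
Deposited log2 value of each of the 9 genes on each array, with hsc82-W296A in red left of WT Hsc82 in dark blue; marker shapes give the replicate number, and bars the mean ± SD of 3 arrays. The groups are apart for 8 genes and overlap for RAS2, and levels of different genes are not comparable because each has its own probes.

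**Figure D2:**
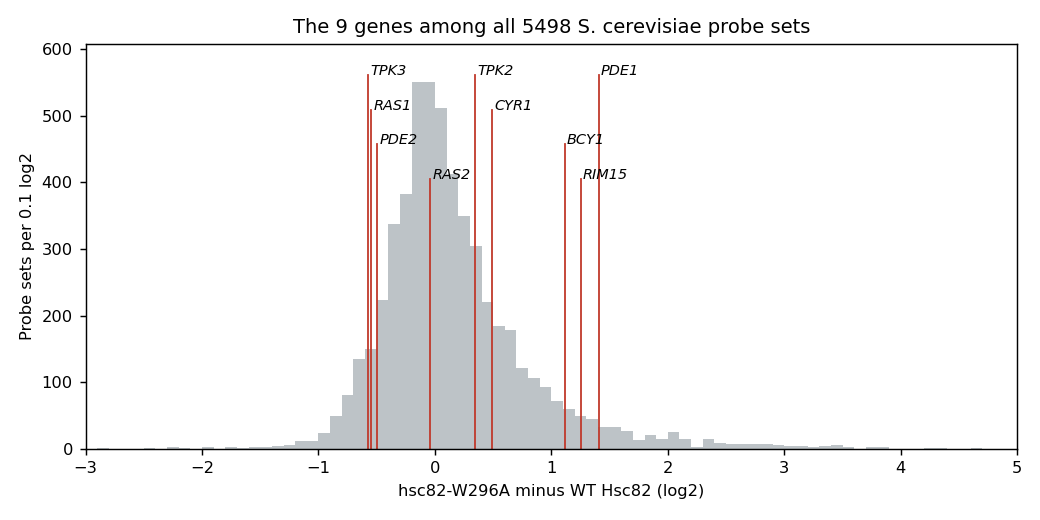
Histogram of the log2 change, hsc82-W296A minus WT Hsc82, over all 5498 S. cerevisiae probe sets in bins of 0.1, with the 9 genes as red lines. PDE1, RIM15 and BCY1 lie in the upper tail, TPK3, RAS1 and PDE2 on the lower flank and RAS2 near the middle.

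RAS1 encodes 1 of the 2 Ras GTPases that activate adenylate cyclase in their GTP-bound form. It read 11.80, 11.87 and 11.82 in hsc82-W296A, against 12.42, 12.36 and 12.35 in WT Hsc82. Every hsc82-W296A array was lower than every WT Hsc82 array, with a gap of 0.48 between the closest arrays. RAS1 fell by 0.55 (SE 0.045, adjusted p = 6.72e-05, limma), or 1.46-fold, and 7.10% of genes had a lower change. The change was -0.74 after anchored scaling and -0.47 once the trend on coding length was removed, and it was called in both.

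RAS2, its paralog, encodes the Ras protein whose loss is known to have the stronger effect on cyclic AMP. RAS2 read 12.82, 12.77 and 12.67 in hsc82-W296A, against 12.74, 12.82 and 12.81 in WT Hsc82. The groups overlapped. Its change was -0.04 with a 95% interval from -0.17 to 0.09 (adjusted p = 0.526, limma), which leaves room for a small shift either way. After anchored scaling it was -0.27 and was called (adjusted p = 0.0142), so the absence of a call depends on how the arrays are scaled.

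The difference between the Ras genes was then taken within each array, where a shift common to the array cancels. RAS1 minus RAS2 was -1.02, -0.90 and -0.85 in hsc82-W296A, against -0.32, -0.47 and -0.46 in WT Hsc82. Only the difference between the groups can be read, since the probe sets differ. The change of RAS1 minus that of RAS2 was -0.51 (SE 0.071), with no overlap of the arrays. An exact two-sided permutation test over arrays gave p = 0.1, the smallest that 3 against 3 arrays allow, and 0.1 after adjustment over the 3 gene pairs compared.

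CYR1 encodes adenylate cyclase, the enzyme that makes cyclic AMP. It read 10.37, 10.53 and 10.60 in hsc82-W296A, against 9.75, 10.07 and 10.21 in WT Hsc82. The groups did not overlap, but the closest arrays were only 0.16 apart, and the WT Hsc82 values had an SD of 0.23. CYR1 rose by 0.49 (SE 0.123, adjusted p = 0.0113, limma), the least precise change among the members. Its coding length of 6081 bases is the longest of the 9, and with the trend on coding length removed its change was 0.25 and was no longer called (adjusted p = 0.115). After quantile normalization it was 0.26 and was called (adjusted p = 0.0282). Genes of at least 5000 bases had a median change of 0.21 (70 genes), and shorter genes 0.04; 48.6% of the long genes were called higher and 36.9% of the shorter ones.

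Of the phosphodiesterases, PDE1 encodes the low-affinity enzyme and PDE2 the high-affinity one. PDE1 read 12.83, 12.91 and 13.07 in hsc82-W296A, against 11.48, 11.55 and 11.56 in WT Hsc82. Every hsc82-W296A array exceeded every WT Hsc82 array, and the closest arrays were 1.27 apart. PDE1 rose by 1.41 (SE 0.070, adjusted p = 1.00e-05, limma), or 2.65-fold, the highest rise among the 9 genes, and 4.72% of genes had a higher change.

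PDE2 moved the other way. It read 12.53, 12.59 and 12.56 in hsc82-W296A, against 13.08, 13.02 and 13.07 in WT Hsc82. The groups lay 0.44 apart at their closest arrays, with SDs of 0.030 in hsc82-W296A and 0.029 in WT Hsc82. PDE2 fell by 0.50 (SE 0.042, adjusted p = 7.46e-05, limma), or 1.41-fold, and its change was -0.74 after anchored scaling.

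Within arrays, PDE1 minus PDE2 was 0.30, 0.32 and 0.52 in hsc82-W296A, against -1.60, -1.47 and -1.51 in WT Hsc82. The change of PDE1 minus that of PDE2 was 1.91 (SE 0.079), the largest in size of the 3 pairs compared. The exact two-sided permutation p was again 0.1, with 0.1 after adjustment. The difference stayed at 1.88 or more under the other scalings and with the trend on coding length removed.

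**Figure D3:**
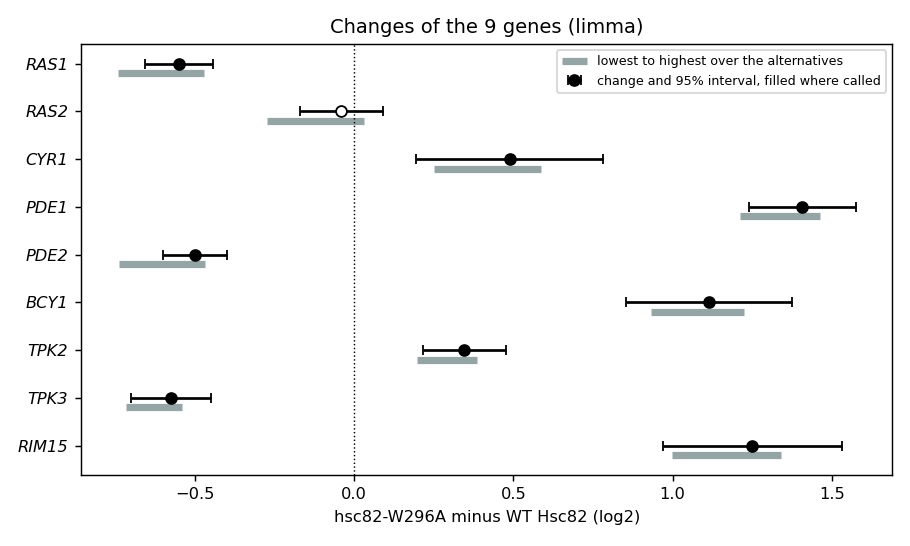
Log2 change of each gene, hsc82-W296A minus WT Hsc82, with its 95% interval from limma (black; filled where called) and the lowest to highest value over 14 alternative fits (grey). The grey range crosses 0 for RAS2 only, and stays above 0.9 for PDE1, BCY1 and RIM15.

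Of the PKA genes, BCY1 encodes the regulatory subunit that holds the catalytic subunits inactive when cyclic AMP is low. BCY1 read 12.35, 12.69 and 12.68 in hsc82-W296A, against 11.31, 11.55 and 11.52 in WT Hsc82. The closest arrays were 0.81 apart, and replicate 1 was the lowest in both groups. BCY1 rose by 1.11 (SE 0.109, adjusted p = 0.000146, limma), or 2.16-fold, and 7.30% of genes had a higher change. Under the scalings its change was 0.93 after anchored scaling, 0.998 after median centring and 1.04 after quantile normalization, so it was just under or just over 2-fold there.

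TPK2 and TPK3 encode catalytic subunits of PKA. TPK2 read 11.69, 11.69 and 11.72 in hsc82-W296A, against 11.26, 11.37 and 11.44 in WT Hsc82. The groups lay 0.25 apart at the closest arrays, with less spread in the mutant (SD 0.018) than in WT Hsc82 (SD 0.087), a difference in spread that was not tested. TPK2 rose by 0.35 (SE 0.055, adjusted p = 0.00133, limma), or 1.27-fold, and its change was 0.20 after anchored scaling (adjusted p = 0.0167).

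TPK3 read 10.60, 10.46 and 10.52 in hsc82-W296A, against 11.11, 11.06 and 11.14 in WT Hsc82. All hsc82-W296A arrays were lower, with the closest arrays 0.46 apart. TPK3 fell by 0.57 (SE 0.053, adjusted p = 0.000109, limma), or 1.49-fold, the deepest fall among the members, and 6.55% of genes had a lower change. TPK3 minus TPK2 within arrays was -1.09, -1.23 and -1.20 in hsc82-W296A, against -0.16, -0.31 and -0.30 in WT Hsc82. The change of TPK3 minus that of TPK2 was -0.92 (SE 0.065), with an exact two-sided permutation p = 0.1 and 0.1 after adjustment. Side by side, the changes of BCY1, TPK2 and TPK3 were 1.11, 0.35 and -0.57.

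**Figure D4:**
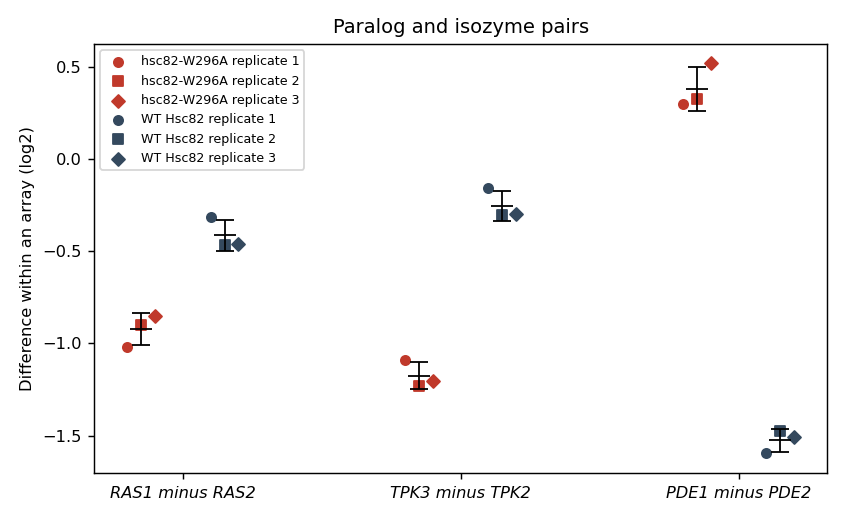
Difference of the log2 values of 2 related genes within each array, for hsc82-W296A (red) and WT Hsc82 (dark blue); shapes give the replicate number and bars the mean ± SD of 3 arrays. For each of the 3 pairs the groups do not overlap, and only the distance between groups is comparable, not the height above 0.

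RIM15 encodes the kinase that PKA and other nutrient pathways restrain. It read 10.42, 10.52 and 10.84 in hsc82-W296A, against 9.26, 9.31 and 9.46 in WT Hsc82. The groups lay 0.95 apart at the closest arrays, and replicate 3 was the highest in both. RIM15 rose by 1.25 (SE 0.117, adjusted p = 0.000120, limma), or 2.38-fold, and 5.91% of genes had a higher change. Its coding length of 5313 bases is also long, and with the trend on coding length removed its change was 1.03 and was still called (adjusted p = 0.000297). It was 0.999 after quantile normalization. In WT Hsc82 RIM15 averaged 9.34 ± 0.107 (SD, n = 3), above the background level.

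Spread between replicates differed among the members. The SD pooled over both groups was 0.029 for PDE2 and 0.040 for RAS1, and it was 0.162 for BCY1, 0.176 for RIM15 and 0.186 for CYR1, against a median of 0.080 over all probe sets. Replicate 1 was the lowest of its group for CYR1, PDE1, BCY1 and RIM15 in both groups, as it was for the median of all S. cerevisiae probe sets. Between arrays of the same number, the change of CYR1 was 0.61, 0.45 and 0.40, that of BCY1 1.04, 1.14 and 1.16, and that of RIM15 1.16, 1.21 and 1.38. Each same-numbered difference of these genes had the same sign as the mean change, which had to be so because their groups did not overlap.

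The genes whose 6 array values were most like those of PDE1, by the root-mean-square (RMS) distance after each gene was centred on its own mean, were YNL058C, HAL1 and POM33, at distances of 0.049, 0.055 and 0.056, where the median gene lay at 0.692. They changed by 1.34, 1.39 and 1.38. For TPK3 they were RPC34, SER2 and SNM1, at distances of 0.020, 0.021 and 0.024 against a median of 0.323, with changes of -0.56, -0.56 and -0.57. With 6 arrays in 2 groups, any gene with a change of the same size and little spread lies close by this measure.

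Other genes of the pathway were read as lists by role. In the list for glucose sensing and the G protein branch, 3 of 8 genes were called higher and 2 lower, near the 36.9% and 30.2% of all probe sets. The median change was 0.14 against 0.04 over all probe sets, but 0.03 after quantile normalization and 0.02 after median centring, after anchored scaling or with the coding length trend removed. After anchored scaling 2 genes were higher and 3 lower, the third being ASC1 at -0.42, named for that reason. ASC1 was at -0.18 and called lower after median centring, but at -0.07 and not called after quantile normalization. It read 14.53 in hsc82-W296A and 14.60 in WT Hsc82, close to the highest value of 14.93. RGS2, a negative regulator of the G protein alpha subunit Gpa2, read 9.48, 9.31 and 9.40 in hsc82-W296A, against 10.65, 10.52 and 10.56 in WT Hsc82. It fell by 1.18 (SE 0.062, adjusted p = 1.17e-05, limma). GPA2 itself read 11.19, 11.05 and 11.04 in hsc82-W296A, against 10.55, 10.51 and 10.63 in WT Hsc82, and rose by 0.53 (adjusted p = 0.000282, limma). The hexokinase gene HXK2 was the other one called lower, with a change of -0.82 (SE 0.041, adjusted p = 1.025e-05, limma). HXK2 was also called lower under the 3 other scalings and with the coding length trend removed. The remaining calls were GPR1, the receptor gene, at 0.24 and GPB2, a kelch protein of the pathway named after its value was seen, at 0.29. GPR1 and GPB2 were not called under any of the 3 other scalings or with the coding length trend removed. With same-numbered arrays as a block GPB1, at 0.50 and named for that reason, was called as well (adjusted p = 0.000661, limma), which made 4 genes higher. GPB1 was also called after anchored scaling, at 0.52 (adjusted p = 0.0218, limma). With array weights or an intensity trend, 4 genes of the list were higher too.

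In the list for exchange, GTPase activation and membrane targeting of Ras, 5 of 11 measured genes were called higher and 4 lower, against 36.9% and 30.2% of all probe sets. The median change was 0.17, but 0.06 after median centring, 0.04 after anchored scaling, 0.0871 without WT Hsc82 replicate 1 and -0.10 with the coding length trend removed. SDC25, also on the list, was not analysed here. TFS1, an inhibitor of carboxypeptidase Y that also binds the Ras GTPase-activating protein Ira2, read 13.53, 13.59 and 13.51 in hsc82-W296A, against 11.08, 10.90 and 11.01 in WT Hsc82. It rose by 2.54 (SE 0.058, adjusted p = 7.65e-07, limma). SRV2, whose product binds adenylate cyclase, read 12.01, 12.25 and 12.28 in hsc82-W296A, against 10.82, 10.96 and 10.93 in WT Hsc82, and rose by 1.28 (SE 0.083, adjusted p = 2.71e-05, limma).

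The 4 genes called lower were RCE1, STE14, RAM2 and RAM1. RCE1, which encodes a protease that trims the C-terminal end of Ras, fell by 0.73 (adjusted p = 0.000116, limma), and STE14, which encodes a methyltransferase for that end, by 0.54 (adjusted p = 8.01e-05, limma). RAM2 and RAM1, which encode subunits of farnesyltransferase and were named after their values were seen, fell by 0.51 and 0.37. All 4 were also called lower under the other scalings and with the coding length trend removed. Also named after their values were seen, SHR5 and ERF2, whose products together add palmitate to Ras, rose by 0.57 and 0.24, and IRA2 rose by 0.37. ERF2 was not called under the other scalings, and IRA2 was not called with the coding length trend removed. The 2 genes not called, named for that reason, were CDC25, the exchange factor of Ras, at -0.07 and IRA1 at 0.17; CDC25 was called lower under each of the other scalings, and IRA1 was called higher with same-numbered arrays as a block (adjusted p = 0.0260, limma).

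In the list of PKA partners and targets, 11 of 14 measured genes were called higher and 0 lower (limma), against 36.9% and 30.2% of all probe sets, with a median change of 0.61. The median was 0.46 after quantile normalization, 0.49 after median centring, 0.52 after anchored scaling and 0.48 with the coding length trend removed. After quantile normalization, with that trend removed or without hsc82-W296A replicate 3, 10 genes were called higher. Like the other lists, this one was chosen with earlier results of these data known. At an unadjusted p under 0.05 the count lower was also 0. Under each of the 3 other scalings it was 1, MAF1, named for that reason, which stood at -0.11 as deposited. YAK1, a kinase that opposes PKA in growth control, read 11.97, 12.30 and 12.22 in hsc82-W296A, against 10.11, 10.39 and 10.42 in WT Hsc82. It rose by 1.86 (SE 0.115, adjusted p = 2.37e-05, limma). NTH1, the neutral trehalase that PKA phosphorylates, read 12.57, 12.74 and 12.87 in hsc82-W296A, against 10.97, 11.20 and 11.29 in WT Hsc82, and rose by 1.57 (adjusted p = 3.30e-05, limma).

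ADR1, a transcription factor for growth on non-fermentable carbon, rose by 2.49 (adjusted p = 3.43e-05, limma). ATG1, the kinase that starts autophagy, read 9.61, 9.92 and 9.96 in hsc82-W296A, against 7.02, 7.43 and 8.06 in WT Hsc82. All 3 WT Hsc82 arrays lay below the background level, so the size of its rise of 2.33 is uncertain. Of the stress response factors that PKA keeps out of the nucleus, both named after their values were seen, MSN4 rose by 0.68 and MSN2 was not called at -0.03.

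In the list of the Rim15 branch, 9 of 14 genes were called higher and 1 lower, against 36.9% and 30.2% of all probe sets. The median change was 0.18, but 0.06 after median centring and 0.0094 after anchored scaling. GIS1, the transcription factor downstream of Rim15, read 11.52, 11.996 and 11.81 in hsc82-W296A, against 10.55, 10.69 and 10.78 in WT Hsc82, and rose by 1.10 (SE 0.126, adjusted p = 0.000296, limma). IGO1, a Rim15 substrate whose product inhibits a form of protein phosphatase 2A, rose by 0.34 (adjusted p = 0.000572, limma), and CDC55, the phosphatase subunit concerned, by 0.41 (adjusted p = 0.000630, limma). BMH2, a 14-3-3 protein, rose by 0.29 (adjusted p = 0.000994, limma). After anchored scaling IGO1 was at 0.11 and BMH2 at 0.02, and neither was called, and the list then had 3 genes higher and 2 lower. With same-numbered arrays as a block SCH9, at 0.21 and named for that reason, was called as well (adjusted p = 0.0251, limma), which made 10 higher. The 1 gene lower as deposited was PHO81, an inhibitor of the Pho80-Pho85 kinase, at -0.37, named after its value was seen.

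In the list of reporter genes of Rim15 and of Msn2 and Msn4, 16 of 16 genes rose (limma). Their median change was 2.24, and 13 rose at least 2-fold, where 36.9% of all probe sets were called higher and 8.86% at least 2-fold higher. These genes are known to be more strongly transcribed when PKA activity is low. PKA activity was not measured here, and the cause of their rise was not tested. The list was chosen with the general rise of stress genes on these arrays already known, so it is not independent evidence. SSA3, GRE1, CTT1 and SPI1 had the smallest adjusted p-values. Array values of all 16 did not overlap between the groups, as for 73.5% of all probe sets. The list's median was 1.97 after anchored scaling.

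**Figure D5:**
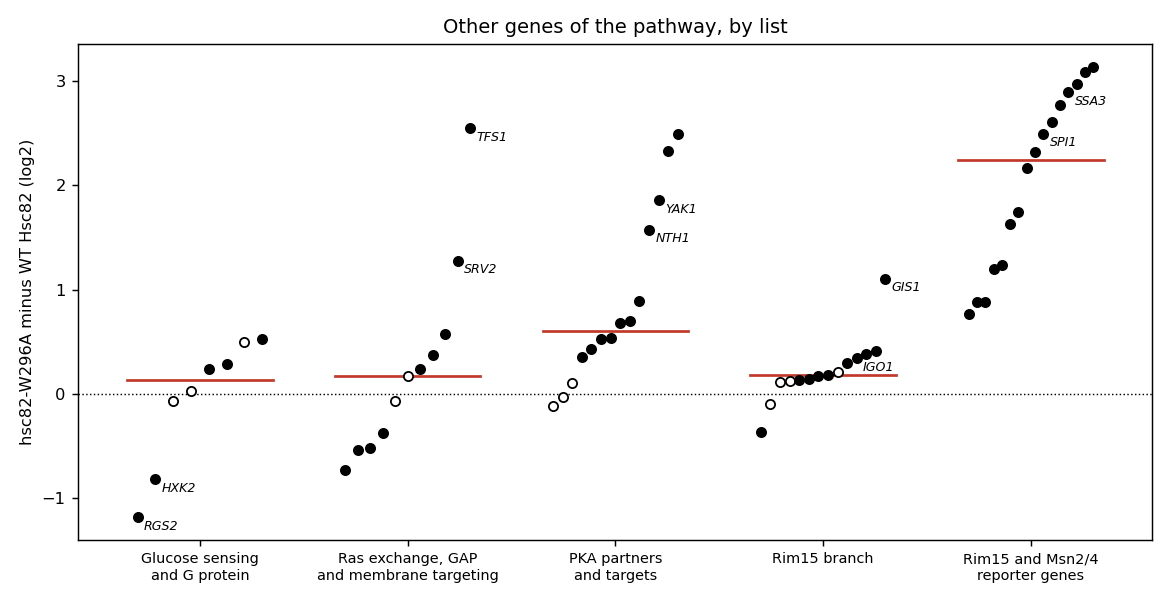
Log2 change, hsc82-W296A minus WT Hsc82, of each measured gene in 5 lists of the pathway, ordered within a list by its change; filled points were called by limma, red lines are list medians, and the 2 genes with the smallest adjusted p are named in each list. The reporter genes all lie above 0.7, and the other lists hold points on both sides of 0.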

How the data were processed

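Total RNA of 6 cultures was measured, 3 per group. Per the labels' protocols, RNA was extracted with Trizol and 5 µg was made into biotinylated cRNA. The authors deposited log2 values, as their range shows, already normalized over the arrays; how background was corrected, values normalized and probes summarized is not given in the sources used here. Limma is named in the submitters' processing notes, without its role.

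Probe sets were named through the platform annotation and, by gene ID, a gene table of assembly R64, giving 5498 S. cerevisiae probe sets of 5449 genes and 1746 of another species, with 3683 not listed. The probe set with the highest mean stood for a gene with several. The background level is the 95th percentile of mean values over probe sets for the other species.

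The comparison of hsc82-W296A with WT Hsc82 was fitted by lmFit and eBayes (limma 3.58.1, R 4.3.3), with no block, and p-values were adjusted by Benjamini-Hochberg over all 5498 probe sets. Differences of 2 genes within arrays had an exact permutation test. Members, lists and tests were chosen with earlier results of these data known. Named by rule were the 9 members, HSC82 and HSP82, up to 4 genes per list with the smallest adjusted p, and the 3 genes most like the member with the largest rise and that with the largest fall; others are marked as named after their values were seen. Same-numbered arrays deviated together for replicates 1 and 3, with correlations of 0.405 and 0.364 between deviations from their group means. For replicate 2 the correlation was 0.148, near the 0.1385 of hsc82-W296A replicate 3 with WT Hsc82 replicate 2. Between arrays of unlike number the correlations ran from -0.3865 to 0.1385. No label states a pairing by replicate number. It entered only as an alternative, the replicate block, and the tests given are unpaired unless the block is named. Alternatives were quantile normalization, median centring, anchored scaling (other-species and S. cerevisiae medians of each array set to their means over the arrays), dim probe sets left out, an intensity trend, array weights, the replicate block, each array left out and a lowess trend on coding length removed. The fit was also run on simulated arrays. It called 18 of 50 probe sets changed by 0.25, 40 of 50 changed by 0.5 and all 50 changed by 1. Of 5298 unchanged probe sets it called 7. Few probe sets were changed there and the noise was independent between arrays, unlike on the real arrays, so these rates need not hold for them. Arrays have no depth, and their number limits the precision.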

Additional observations from a re-analysis of the deposited data

How the results depend on the processing

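RAS1, PDE1, PDE2, BCY1, TPK2, TPK3 and RIM15 kept their direction and their call under all 14 alternatives. RAS2 was called at -0.27 after anchored scaling. Its sign turned, without a call, to 0.032 with the coding length trend removed and to 0.0006 without hsc82-W296A replicate 3, and leaving out each array gave -0.073 to 0.0006. CYR1 was at 0.25 and not called with the coding length trend removed. The causes were not tested. In the glucose sensing list, 1 gene in place of 3 was called higher after quantile normalization or median centring, with the coding length trend removed and without hsc82-W296A replicate 3, and 1 to 3 over the left-out arrays. In the PKA list, 1 in place of 0 was called lower under each of the 3 scalings. In the Rim15 branch, 5 in place of 9 were called higher after median centring and 3 after anchored scaling, and 2 in place of 1 were called lower under all 3 scalings and with array weights. The scalings moved the median change of all probe sets from 0.04 as deposited to -0.06 after quantile normalization, -0.07 after median centring and -0.06 after anchored scaling. They moved the share of calls that were higher from 55.0% to 42.8%, 42.3% and 44.1%. With the replicate block no call on a member changed, GPB1, IRA1 and SCH9 of the lists gained a call and no list gene lost one, CYR1 had an adjusted p of 0.000525 in place of 0.0113, and 2236 probe sets were called higher and 1771 lower, against 2028 and 1660 without it; in the paired form the smallest exact p for the gene pairs is 0.25. No member had another probe set, so that alternative gave no value. Signal near background limits what can be read of ATG1 in WT Hsc82.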
